A study of Arabidopsis thaliana with 6 samples.

Results

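The 6 genes FLC (AT5G10140), MAF1, also called FLM (AT1G77080), MAF2 (AT5G65050), MAF3 (AT5G65060), MAF4 (AT5G65070) and MAF5 (AT5G65080) form the FLC clade of MADS-box transcription factor genes in Arabidopsis thaliana. They were chosen by locus identifier, as the named members of this family, with earlier results of these data known. They are 6 of the 33602 loci with a count and 6 of the 19591 that entered the test. RNA was sequenced from the aerial parts of seedlings in 2 groups of 3 samples each. No label says whether these came from separate batches of plants, so p-values measure the spread between samples, which may be technical. One group was wild type of the Col-0 ecotype. The other was a quintuple mutant in the same ecotype, written snl1/2/3/4/5 or snl12345, with mutations in the SIN3-LIKE genes SNL1, SNL2, SNL3, SNL4 and SNL5. The labels do not name the 5 alleles. Seedlings of both groups were 11 days old and taken 5 h into the light period of a long day, with 16 h of light and 8 h of darkness. The comparison bears on how the SNL genes act on the floral transition, which is the subject of the series.

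FLC clade proteins are repressors of flowering. FLC works with a second MADS-box protein, SVP, and represses FT, which encodes the mobile flowering signal made in leaves, and SOC1, a MADS-box integrator gene that promotes flowering. Prolonged cold silences FLC through Polycomb chromatin marks, the process known as vernalization. Col-0 carries a loss-of-function allele of the FLC activator FRIGIDA, so FLC is known to be low in this ecotype without cold. MAF1 also acts with SVP and delays flowering at low ambient temperature. MAF2 delays the response to short spells of cold, MAF3 and MAF4 are further repressors of flowering, and MAF5 is the member that rises during vernalization. The SNL proteins are related to Sin3 of yeast, a scaffold on which histone deacetylases assemble.

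MAF2, MAF3, MAF4 and MAF5 lie next to each other in this order on the plus strand of chromosome 5, with no other counted locus between them. FLC lies elsewhere on chromosome 5, on the minus strand, and MAF1 on the plus strand of chromosome 1. The genes are similar enough for their reads to be a concern, so the stretch that encodes the conserved DNA-binding MADS domain is shown. These are 180 coding bases per gene of the RefSeq models on TAIR10.1, read 5′ to 3′ along the gene from the ATG that starts the domain. For MAF5 this is base 22 of the longest coding sequence and for the others base 1. Capitals mark bases that differ from FLC at the same place.
FLC: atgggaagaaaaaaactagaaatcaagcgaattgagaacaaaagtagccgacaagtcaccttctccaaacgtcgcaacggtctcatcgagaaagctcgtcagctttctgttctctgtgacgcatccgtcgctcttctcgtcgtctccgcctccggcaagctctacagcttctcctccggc
MAF1: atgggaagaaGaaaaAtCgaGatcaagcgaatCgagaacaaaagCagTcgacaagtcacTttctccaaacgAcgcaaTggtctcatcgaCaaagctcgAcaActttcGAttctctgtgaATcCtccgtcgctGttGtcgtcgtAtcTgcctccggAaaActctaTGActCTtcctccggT
MAF2: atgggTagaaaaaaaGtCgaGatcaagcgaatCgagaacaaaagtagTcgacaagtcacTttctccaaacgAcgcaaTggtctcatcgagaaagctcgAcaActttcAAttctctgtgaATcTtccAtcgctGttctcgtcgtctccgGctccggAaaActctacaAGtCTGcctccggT
MAF3: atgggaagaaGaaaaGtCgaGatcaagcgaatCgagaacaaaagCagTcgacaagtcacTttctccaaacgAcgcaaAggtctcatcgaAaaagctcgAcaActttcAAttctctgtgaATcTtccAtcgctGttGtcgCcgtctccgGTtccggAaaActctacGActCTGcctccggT
MAF4: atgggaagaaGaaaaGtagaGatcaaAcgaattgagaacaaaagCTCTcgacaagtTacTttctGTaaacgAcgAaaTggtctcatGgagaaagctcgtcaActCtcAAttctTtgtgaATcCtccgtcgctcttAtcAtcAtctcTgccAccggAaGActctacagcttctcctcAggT
MAF5: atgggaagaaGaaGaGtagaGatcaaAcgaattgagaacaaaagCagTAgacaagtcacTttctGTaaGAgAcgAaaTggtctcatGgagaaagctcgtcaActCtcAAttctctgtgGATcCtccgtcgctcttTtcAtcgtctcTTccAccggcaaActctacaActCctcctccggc

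The MAF genes differed from FLC at 27 of these bases in MAF2, 30 in MAF1, 32 in MAF3, 33 in MAF5 and 34 in MAF4. Over the whole aligned coding sequence, MAF2 and MAF3 were the closest pair, with 93.6% of 591 aligned bases identical. MAF4 and MAF5 were closest to each other, at 84.6%, and FLC shared between 72.3% and 77.7% with the others. Of all 50-base windows in annotated exons, 2.46% in MAF3 and 0.28% in MAF1 occurred a second time in the genome, and none in FLC, MAF2, MAF4 or MAF5. Of 25-base windows, 14.62% in MAF3, 6.98% in MAF2, 2.83% in MAF5, 1.8% in MAF1 and 1.76% in MAF4 did, and none in FLC. The sources used here give neither read length nor the treatment of reads with several matches, so how many reads of each gene were uncertain in their assignment is unknown. MAF3 had the highest share of repeated windows at both lengths. An antisense RNA, AT5G01675, overlaps FLC over 6067 bases and has no count of its own. The strand setting of the counting is not given, so FLC counts may hold reads of it.

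Total counts ran from 12622416 to 15774357 per library. All 5 mutated SNL genes were lower in the mutant, with log2 fold changes from −4.57 (SNL2) to −0.92 (SNL5) and adjusted p between 0.0001715 and 0.000213 (edgeR quasi-likelihood test). Mutant replicate 3 had the highest level of each of them, 7.57 CPM of SNL2 beside 2.32 and 2.64 CPM in the other two. The 5 markers of green shoot tissue summed to between 24290 and 28220 CPM in wild-type libraries and between 22360 and 28510 CPM in mutant ones, and none passed the test. The 5 root markers summed to between 1122 and 1175 CPM in wild-type libraries and between 2278 and 3095 CPM in mutant ones, mostly PYK10. PYK10 and WOX5 passed the test upward, and RSL4, EXPA7 and COBL9 did not pass. The 7 floral markers summed to 8.00 to 8.87 and 20.2 to 35.2 CPM, and the rise was mostly PI (log2 fold change 2.65). SEP3, the other tested one, did not pass (log2 fold change 0.36, adjusted p = 0.19, edgeR quasi-likelihood test). The other floral markers were not tested. LFY had 9 and 10 reads in all, and AP1 and CAL had no more than 3 in any library. AP3 and AG had more reads in the mutant. In replicates 1 to 3, AP3 had 2, 2 and 1 reads in wild type against 11, 6 and 10. AG had 0, 3 and 1 reads in wild type against 3, 4 and 7. The 3 seed markers, none of them tested, summed to at most 0.198 CPM and to 0.382 to 1.26 CPM. The rise was in CRA1, with 2 reads in all in wild type and 31 in the mutant. FUS3 had 1 read in each group, and OLEO1 was at 0 in all libraries.

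Among the 6 genes, MAF5 and MAF4 rose in the mutant, MAF3 fell, and FLC, MAF1 and MAF2 did not pass the test. MAF5 was 4.53-fold higher and MAF4 1.67-fold higher, while MAF3 was 1.30-fold lower. The 3 called genes are to be read against 34.8% of all tested genes called, 18.3% higher and 16.5% lower, at an adjusted p below 0.05 (edgeR quasi-likelihood test, Benjamini-Hochberg adjustment over all tested genes). The groups did not overlap for FLC, MAF3, MAF4 and MAF5, a pattern shown by 49.8% of tested genes. The median log2 fold change of the 6 genes was −0.17, beside 0.00 for all tested genes. RNA came from whole aerial tissue, so a change in the number of cells of a type and a change in RNA per cell cannot be told apart. The part of the root and floral marker shifts in the changes of MAF3, MAF4 and MAF5 was not tested. Without mutant replicate 3, the library with more SNL reads, the log2 fold changes of these 3 genes were −0.40, 0.77 and 2.23, and all passed the test.

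**Figure D1:**
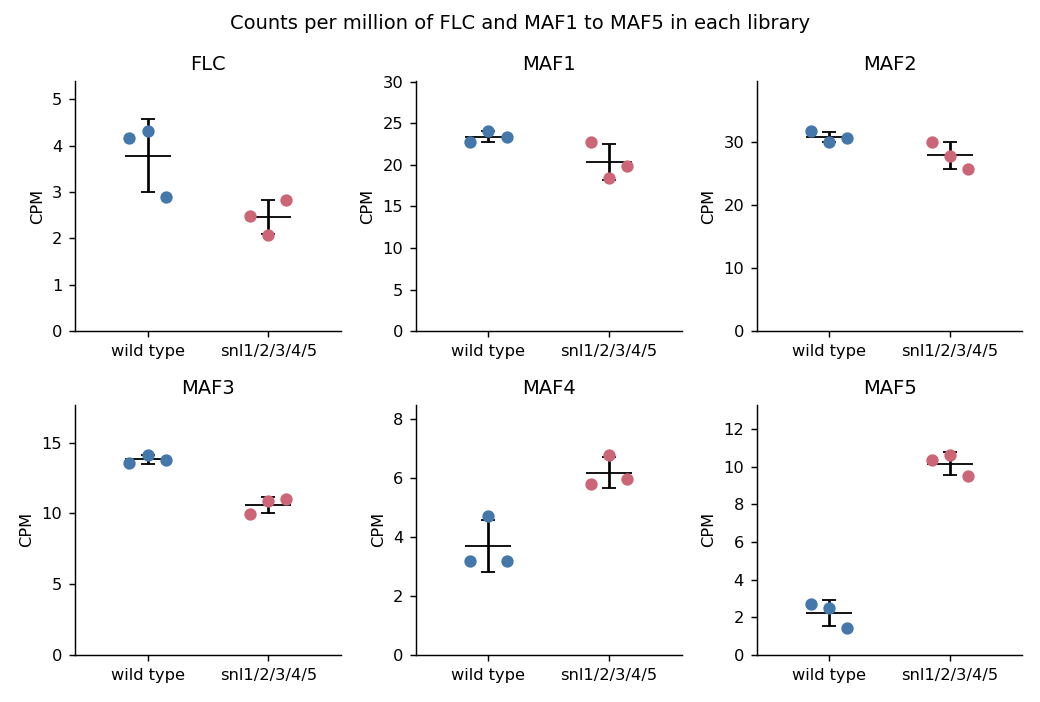
Level in CPM (reads scaled to a common library total, TMM) of each of the 6 genes, with a point per library, replicates 1 to 3 from left to right, and the mean ± SD of 3 libraries in black. Every mutant point lies above every wild-type point for MAF4 and MAF5 and below for MAF3 and FLC, while the groups overlap for MAF1 and MAF2.

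In replicates 1 to 3, wild type gave 41, 37 and 19 reads of MAF5, against 134, 169 and 124 for the mutant. As CPM, the reads of a gene scaled to a common library total, these were 2.71, 2.49 and 1.44 against 10.4, 10.6 and 9.48. All 3 mutant libraries lay close together and far above wild type, where replicate 3 was the lowest. The means were 2.21 ± 0.679 and 10.2 ± 0.605 CPM (SD, n = 3 per group), a log2 fold change of 2.18 ± 0.20 SE with a 95% interval of 1.72 to 2.64 (adjusted p = 0.000312, edgeR quasi-likelihood test). Only 85 tested genes had a higher fold change, so MAF5 ranked 86 of 19591, and 0.582% of tested genes were called and at least 4-fold higher. The summed reads, 97 against 427, gave a ratio per total count of 4.53 with an exact 95% interval of 3.62 to 5.70, which covers counting error only. The call held under all 15 alternatives, with log2 fold changes from 1.96 to 2.35, and against a null of 1.5-fold (adjusted p = 0.00174). Of the 6 genes, MAF5 alone was listed in the authors' deposited table of higher genes, with a log2 fold change of 2.17 and an adjusted p of 7.19e-22, and none was in the authors' deposited table of lower genes. Both tables hold genes with a log2 fold change of at least 1 in size.

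MAF4 lies next to MAF5. Wild-type libraries held 3.17, 4.72 and 3.18 CPM of it, from 48, 70 and 42 reads, and mutant libraries 5.80, 6.80 and 5.96 CPM, from 75, 108 and 78 reads. Replicate 2 was the highest library in each group, and the groups did not overlap. The means were 3.69 ± 0.888 and 6.19 ± 0.534 CPM (n = 3 per group), a log2 fold change of 0.74 ± 0.19 SE with a 95% interval of 0.32 to 1.17 (adjusted p = 0.0167, edgeR quasi-likelihood test). Leaving out wild-type replicate 1 (adjusted p = 0.0726), wild-type replicate 3 (0.0556) or mutant replicate 2 (0.06985) ended the call, in a range over the alternatives of 0.00858 to 0.0726.

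The level of MAF3 was 13.6, 14.2 and 13.8 CPM in the wild-type libraries, against 9.98, 10.9 and 11.0 CPM in those of the mutant. The libraries of each group lay close together, with a gap between the groups. The means were 13.8 ± 0.302 and 10.6 ± 0.563 CPM (n = 3 per group), so that the mutant held 76.8% of the wild-type level. The log2 fold change was −0.38 ± 0.09 SE, with a 95% interval of −0.59 to −0.17 (adjusted p = 0.0135, edgeR quasi-likelihood test). The default DESeq2 run did not call it (adjusted p = 0.0545, range over the alternatives 0.0128 to 0.0545).

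MAF2, the first gene of the tandem run, stood at 31.6, 30.0 and 30.6 CPM in the wild-type libraries and at 30.0, 27.7 and 25.7 CPM in the mutant ones. Mutant replicate 1 lay within the wild-type range and the other mutant libraries below it. The log2 fold change was −0.15 ± 0.08 SE (adjusted p = 0.197), and its 95% interval allowed levels between 0.794 and 1.03 of wild type. It passed the threshold under none of the 15 alternatives, where the adjusted p ranged from 0.0931 to 0.429. MAF1, on the other chromosome, stood at 22.7, 24.1 and 23.4 CPM against 22.7, 18.4 and 19.9 CPM. Mutant replicate 1 was at the level of the lowest wild-type library, and the other mutant libraries were below it. The log2 fold change of MAF1 was −0.20 ± 0.10 SE (adjusted p = 0.13, edgeR quasi-likelihood test), with an interval of 0.746 to 1.01 of the wild-type level. Without mutant replicate 1 it passed the threshold (log2 fold change −0.29, adjusted p = 0.0386, range 0.0386 to 0.355).

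FLC was covered by 63, 64 and 38 reads in the wild-type libraries and by 32, 33 and 37 in the mutant ones, or 4.16, 4.31 and 2.88 against 2.47, 2.08 and 2.83 CPM. The groups touched without overlapping, since wild-type replicate 3 and mutant replicate 3 differed by a few hundredths of a CPM. The means were 3.79 ± 0.787 and 2.46 ± 0.376 CPM (n = 3 per group), a log2 fold change of −0.63 ± 0.22 SE. FLC did not pass the test (adjusted p = 0.0518, edgeR quasi-likelihood test), and the interval of its level was 0.457 to 0.909 of wild type. It passed without wild-type replicate 3 (0.031) or mutant replicate 3 (0.0446), with scaling by library totals (0.049) and with no organelle genes (0.0491), in a range of 0.031 to 0.171. Summed over replicates, 102 reads stood against 165, a ratio of 0.636 after division by total counts; its exact 95% interval for counting error ran from 0.492 to 0.819.

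In wild type the spread between replicates followed depth in part, and in the mutant the pattern differed. In wild type the coefficient of variation was 30.7% for MAF5, 24.1% for MAF4 and 20.8% for FLC, where counting alone gives 17.6%, 13.7% and 13.5% at their mean reads. It was between 2.19% and 2.83% for MAF1, MAF2 and MAF3, below the 4.76% to 7.09% that counting gives. In the mutant it ran from 5.30% for MAF3 to 15.3% for FLC. There MAF1 (10.9%) and MAF2 (7.785%) lay above the 5.955% and 5.08% that counting gives. The other members lay below it: MAF5 (5.95% against 8.38%), MAF4 (8.64% against 10.72%), FLC (against 17.15%) and MAF3 (against 8.20%).

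Read along chromosome 5, the log2 fold changes of the 4 tandem genes ran from −0.38 for MAF3 to 2.18 for MAF5. The level of MAF4 relative to MAF3 within a library, as a difference of log2 CPM, was −2.05, −1.56 and −2.07 in wild-type libraries and −0.77, −0.67 and −0.87 in mutant ones. That is a shift of 1.12 in log2, and the groups did not overlap. The level of MAF5 relative to MAF4 was −0.22, −0.88 and −1.07 in wild-type libraries and 0.82, 0.64 and 0.66 in mutant ones, a shift of 1.43, so MAF5 passed from below MAF4 to above it in reads. The 2-sided exact permutation test gave p = 0.1 for both pairs, the smallest that 3 against 3 libraries allow, and 0.2 adjusted over the 4 pairs compared. MAF3 relative to MAF2 shifted by −0.23, with overlapping groups (exact p = 0.2), and MAF1 relative to FLC by 0.38 (exact p = 0.2, adjusted 0.2 for both). Without mutant replicate 1 the MAF3 to MAF2 shift was −0.13.

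**Figure D2:**
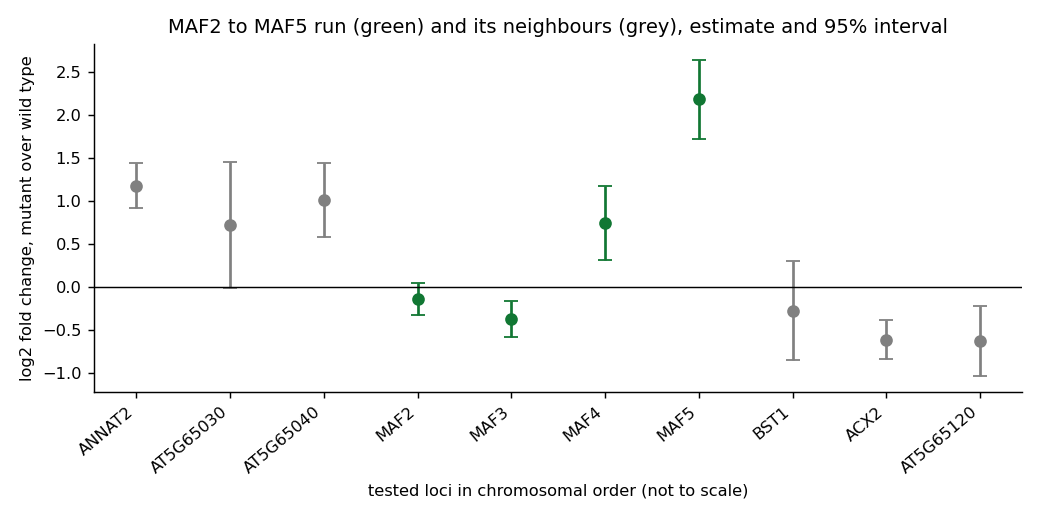
Log2 fold change, mutant over wild type, with its 95% interval (edgeR) for the tested loci in chromosomal order around the MAF2 to MAF5 run. MAF3 lies below 0, MAF4 and MAF5 above, and the next tested locus beyond MAF5, BST1, has an interval that spans 0.

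MAF5 took a larger share of the tandem cluster in every mutant library than in any wild-type library. Dividing CPM by annotated exon length, MAF5 made up 9.71%, 8.68% and 5.45% of the cluster in wild-type libraries and 30.5%, 30.5% and 29.2% in mutant ones. The share of MAF3 went from 41.9% ± 1.61 to 26.4% ± 1.90 and that of MAF2 from 40.3% ± 2.15 to 29.8% ± 1.92, while MAF4 went from 9.89% ± 2.04 to 13.7% ± 0.894 (SD, n = 3 per group). Each of the 4 shares had groups that did not overlap and an exact permutation p of 0.1, the smallest possible, also after adjustment over the 4 genes. Shares of 1 sum are not independent, since a higher share of MAF5 lowers the others. With coding length in place of exon length, the share of MAF5 went from 4.25% to 18.3% and that of MAF3 from 27.8% to 19.9%, so the size of both shifts depends on the length used. The reads of the whole cluster summed to 50.5 ± 1.30 CPM, against 54.7 ± 2.28 CPM in the mutant. Those of all 6 genes summed to 77.6 ± 2.27 and 77.5 ± 3.40 CPM, means that differed by less than the SD of either group. Per kb of annotated exon the sums were higher in every mutant library than in any wild-type library. The cluster went from 22.6 ± 0.941 to 27.5 ± 0.988 CPM per kb, and all 6 genes from 31.0 ± 1.64 to 34.1 ± 0.778. Whether the total of the 6 genes was level thus depended on the unit.

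**Figure D3:**
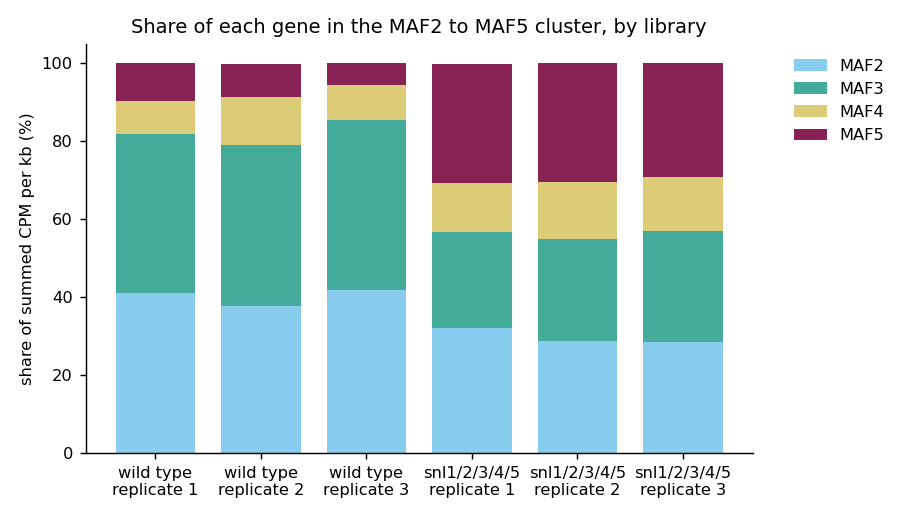
Share of each gene in the summed CPM per kb of annotated exon of MAF2 to MAF5, with a bar per library (3 wild type, 3 mutant). The MAF5 segment is 5.45% to 9.71% in wild type and 29.2% to 30.5% in the mutant.

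Levels can be compared between genes only per length, and the order depended on which length was used. Per kb of annotated exon, wild type ranked MAF3 (9.45 ± 0.206 CPM per kb), MAF2 (9.08 ± 0.251), MAF1 (5.22 ± 0.147), FLC (3.21 ± 0.667), MAF4 (2.24 ± 0.540) and MAF5 (1.80 ± 0.553). MAF3 and MAF2 overlapped between libraries, as did FLC with MAF4 and MAF4 with MAF5. In the mutant MAF5 stood first at 8.28 ± 0.493 CPM per kb, overlapping with MAF2 at 8.21 ± 0.639. MAF3 followed at 7.25 ± 0.385, then MAF1 at 4.54 ± 0.495 and MAF4 at 3.76 ± 0.325, which overlapped, and FLC was last at 2.08 ± 0.319. MAF1 and MAF2 have 4480 and 3384 annotated exon bases, against 672 and 591 coding bases. Per kb of coding sequence MAF2 led in both genotypes (52.0 ± 1.44 and 47.0 ± 3.66), followed by MAF1 and MAF3. On that scale MAF5 went from last, at 3.60 ± 1.10, to the place behind MAF3, at 16.5 ± 0.983, where it overlapped with MAF3 at 18.0 ± 0.953. On both scales, and with the longest transcript, MAF5 was the lowest member in wild type and FLC the lowest in the mutant.

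**Figure D4:**
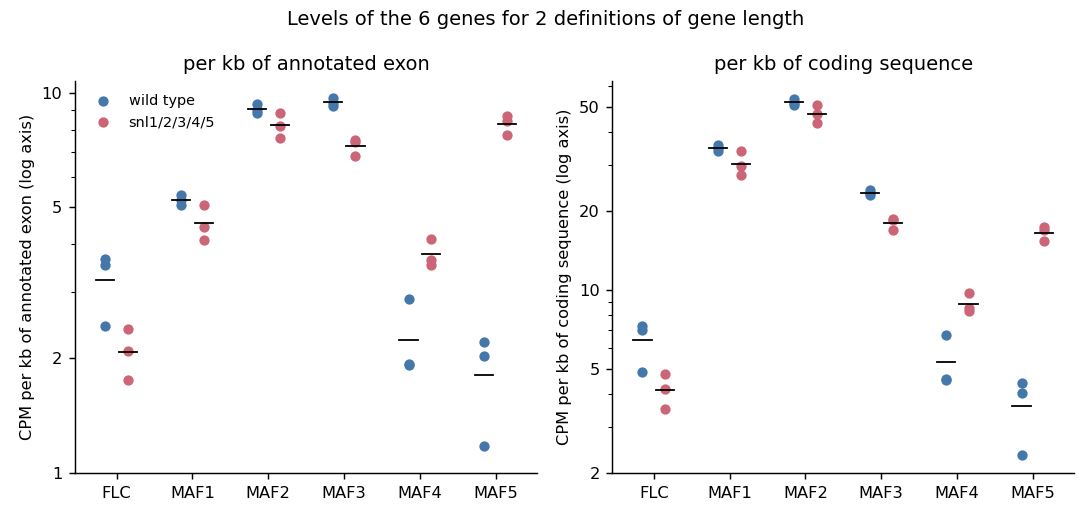
CPM per kb of annotated exon (left) and per kb of coding sequence (right) on log axes, with a point per library and a line at the mean of 3. MAF5 moves from the lowest of the 6 genes in wild type to the level of MAF2 (left) or MAF3 (right) in the mutant.

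The genes around the members changed in both directions. Of the 8 counted loci nearest to the MAF2 to MAF5 run, 4 on each side, 6 were tested, 2 rose and 2 fell, beside 34.8% of all tested genes called. With so few loci no share is read from this. AT5G65040, the counted locus before MAF2, rose from 2.78 ± 0.551 to 5.63 ± 0.643 CPM (log2 fold change 1.01 ± 0.19 SE, adjusted p = 0.00486, edgeR quasi-likelihood test). ANNAT2, an annexin gene 2 loci further out, rose from 47.1 ± 4.74 to 106 ± 14.0 CPM (adjusted p = 0.0004). BST1, next after MAF5, had 1.51 ± 0.248 and 1.24 ± 0.213 CPM (log2 fold change −0.28 ± 0.25 SE, adjusted p = 0.414). Beyond it ACX2, an acyl-CoA oxidase gene of fatty acid breakdown, fell from 170 ± 7.37 to 111 ± 14.7 CPM (0.00292), and AT5G65120 fell from 5.12 to 3.32 CPM (0.0263). Of the 6 runs that left out 1 library, the AT5G65120 call held in the one without mutant replicate 1 and in none of the others (range over the alternatives 0.0137 to 0.0977). Of 7 tested neighbours of FLC, 4 rose and 1 fell, beside 18.3% and 16.5% of all tested genes. AT5G10130, next to FLC, rose from 3.61 ± 0.666 to 9.07 ± 1.54 CPM (adjusted p = 0.00155). The sulfate transporter gene SULTR2;1 rose from 101 ± 1.31 to 204 ± 42.0 CPM (0.00142). MIPS3 and TPPI rose by 0.62 and 0.87 in log2, and AT5G10150, next to FLC on the other side, fell by 0.43 in log2 (0.00616). Of 4 tested neighbours of MAF1, AT1G77020 rose by 0.65 in log2 (0.00176), AT1G77060 fell by 0.43 (0.00737) and 2 did not pass, against the same shares.

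Among genes known to switch FLC on, 2 passed the test, both downward. The list of FLC activators holds the FRIGIDA complex and the SWR1, PAF1, histone methylation and ubiquitination factors. Of its 17 genes, all tested, 0 rose, 2 fell and the other 15 missed the threshold, with a median log2 fold change of −0.14. Of all tested genes, 18.3% rose and 16.5% fell, with a median of 0.00. ARP6, a subunit of the SWR1 complex, had 25.2 ± 0.378 and 20.1 ± 2.31 CPM (log2 fold change −0.33 ± 0.10 SE, adjusted p = 0.0282, edgeR quasi-likelihood test). SUF4, which binds DNA in the FRIGIDA complex, had 35.3 ± 1.92 and 28.4 ± 2.71 CPM (log2 fold change −0.31 ± 0.09 SE, 0.0284). With 1 library left out, ARP6 stayed past the threshold where that was mutant replicate 3 and SUF4 where it was mutant replicate 1, and neither did otherwise (ranges over the alternatives 0.00582 to 0.0986 and 0.0167 to 0.123). The default DESeq2 run also lost ARP6. The count of 2 lower activators was 0 with a wild-type replicate or mutant replicate 2 left out, 1 with mutant replicate 3 left out or in the default DESeq2 run, and 4 with mutant replicate 1 left out. FRI itself, the gene at the head of the FRIGIDA complex, had 8.85 ± 1.77 and 7.47 ± 0.0377 CPM (adjusted p = 0.235).

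The autonomous pathway keeps FLC low through RNA processing and chromatin. Of its 7 genes, 0 rose, FCA and FLK fell and 5 did not pass, with a median log2 fold change of −0.13. The share called was near the 34.8% of all tested genes. FCA, an RNA-binding protein gene, had 36.6 ± 0.989 and 29.2 ± 2.57 CPM (log2 fold change −0.33 ± 0.08 SE, adjusted p = 0.0177, edgeR quasi-likelihood test). FLK, another RNA-binding protein gene, had 54.7 ± 3.32 and 43.9 ± 5.19 CPM (log2 fold change −0.32 ± 0.10 SE, 0.0342). Leaving out wild-type replicate 1, wild-type replicate 2 or mutant replicate 2 ended both calls and took the count of 2 to 0. Leaving out mutant replicate 1 ended the FLK call and took it to 1. The adjusted p ranged from 0.00845 to 0.065 for FCA and from 0.00806 to 0.116 for FLK over the alternatives.

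Among Polycomb and vernalization genes, 10 of 11 were tested. Of these 1 rose, 2 fell and the other 7 missed the threshold, with a median log2 fold change of −0.05. Here too the share called was near the 34.8% of all tested genes. LHP1, which reads the Polycomb mark, was at 23.0, 24.5 and 26.8 CPM in wild-type libraries and at 18.5, 15.9 and 15.8 CPM in mutant ones, with no overlap. It fell by 0.57 ± 0.10 SE in log2 (adjusted p = 0.00391, edgeR quasi-likelihood test) and was called under all 15 alternatives. CLF, a Polycomb methyltransferase gene, had 23.2 ± 1.67 and 18.2 ± 2.50 CPM (0.0445, range 0.0353 to 0.13). VRN1, a DNA-binding protein gene needed to keep FLC silent, had 28.7 ± 1.68 and 34.9 ± 3.08 CPM (0.0407, range 0.0123 to 0.128). Dropping a wild-type replicate or mutant replicate 2, or testing with DESeq2, ended the calls of both CLF and VRN1, which left 1 lower and 0 higher genes. VRN1 was also lost with mutant replicate 1 dropped, with scaling by library totals and with no filter on low counts. VIN3, which is switched on by long cold, had 0 reads in all 6 libraries.

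SVP, the partner of FLC and MAF1, stood at 88.4, 89.3 and 92.5 CPM against 97.4, 102 and 103 CPM in the mutant. The groups did not overlap, a pattern shown by 49.8% of tested genes. The difference did not pass the test (log2 fold change 0.16 ± 0.06 SE, 95% interval 0.02 to 0.31, adjusted p = 0.0748, edgeR quasi-likelihood test). The target SOC1 fell from 32.4, 29.0 and 33.1 CPM to 4.87, 7.49 and 11.7 CPM (log2 fold change −1.97 ± 0.24 SE, adjusted p = 0.000862). FD, whose bZIP protein works with FT at the shoot tip, averaged 2.27 ± 0.458 and 1.59 ± 1.02 CPM (adjusted p = 0.346), and among the alternatives it passed in the one that left out mutant replicate 1 (0.0454, range 0.0454 to 0.684). FT was under the filter, with reads of 1, 0 and 0 in the wild-type libraries against 4, 13 and 5. The ratio per total count was 22.6, its exact 95% interval for counting error ran from 3.66 to 934, and a 2-sided exact permutation test gave p = 0.1, the smallest possible. TSF, the closest relative of FT, had 2 reads in all, which gives no comparison. Among the 5 partner and target genes, 3 were tested, of which 0 rose and 1 fell. Of all tested genes 18.3% rose and 16.5% fell, and with so few genes no share is read from this.

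**Figure D5:**
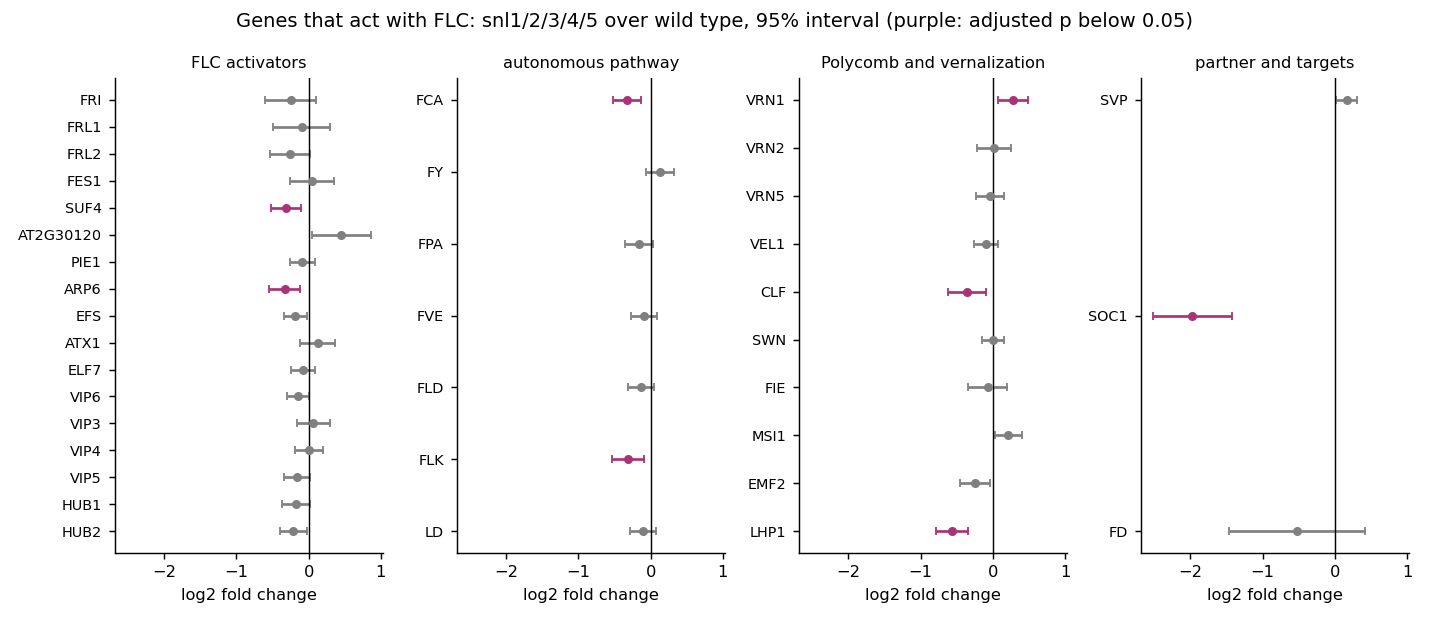
Log2 fold change, mutant over wild type, with its 95% interval (edgeR) for the tested genes of the 4 lists, purple where the adjusted p is below 0.05. The autonomous pathway genes lie between −0.33 and 0.13, while SOC1 lies at −1.97.

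For each member the genes with the most similar profile were taken by Pearson's r of log2 CPM over the 6 libraries, among 18920 tested genes with a mean of at least 1 CPM. The points share genotype and library, so a high r in part restates that genes differ between the genotypes, and r is given as a description. For MAF5 they were BRXL4 (r = 0.999) and PRP4, a proline-rich cell wall protein gene (0.998), and 971 genes reached 0.95. For MAF4 they were AT1G74510 (0.993) and AT3G45230 (0.992), with 226 genes at 0.95. MAF3 was most like MGD1, a galactolipid synthase gene (0.999), and AT5G48760 (0.9985), with 668 genes at 0.95. FLC was most like IKU1 (0.997) and AT5G63150 (0.997), MAF1 like AT5G06180 (0.9965) and EDA10 (0.996), and MAF2 like AT3G13980 (0.994) and AT5G66600 (0.993). No member was among the closest genes of another.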

How the data were processed

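Whole-number read counts per gene, not normalized, are the values the authors deposited for each library. The submitters' processing notes name TAIR10 and the tools HTSeq, TopHat, edgeR and cutadapt 1.4, while the sources used here give no roles or other versions. RNA libraries were strand-specific by kit name, per the labels' protocols. From 2 further tables that the authors deposited, one of higher and one of lower genes, the log2 fold change and the adjusted p-value were used, and 24 columns of values per library in them were not used.

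Group and replicate were read from sample titles. The members and lists were chosen with earlier results of these data known. Genes were kept with filterByExpr (minimum count 10, minimum total 15), scaled with TMM and tested in R 4.3.3 by the quasi-likelihood F-test of edgeR 4.0.16 (glmQLFit, glmQLFTest) over all 6 libraries with genotype as its factor, at a threshold of 0.05 on the Benjamini-Hochberg adjusted p. The SE is the log2 fold change divided by the square root of F. log2 CPM uses a prior count of 2. Alternatives used limma 3.58.1 and DESeq2 1.42.0. The fit was tested on simulated counts. Names, lengths and neighbours come from RefSeq on TAIR10.1, matched to 32835 of 33602 loci. Coordinates are left out, since the counts rest on TAIR10. Coding sequences were aligned with Biopython 1.88. AT2G30120 stands under its identifier, since RefSeq pairs no symbol with it. Without a known strand setting, reads of loci that overlap on opposite strands cannot be told apart. Besides FLC this touches ANNAT2, ARP6, BST1, CLF, LHP1, MIPS3, PRP4, AT5G06180, EDA10 and SNL1. Same-strand overlaps touch AT1G77060, MGD1 and SUF4.

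Named genes were the 6 members, the 5 partners and targets, up to 4 called genes per pathway list by adjusted p, called neighbours, the loci beside the MAF run, the SNL genes and the 2 most similar genes per member. FRI, VIN3 and the markers were named beyond this rule, after their values were seen.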

Additional observations from a re-analysis of the deposited data

How the results depend on the processing

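The directions of all 6 members held under every alternative run, and MAF5 kept its call throughout. FLC passed the threshold with scaling by library totals (log2 fold change −0.64) and with no organelle genes (−0.64), MAF3 lost its call in the default DESeq2 run (−0.38), and neither MAF3 (−0.38) nor MAF4 (0.74) passed against a null of 1.5-fold. Leaving out 1 library in turn gave log2 fold changes of −0.79 to −0.52 for FLC, −0.29 to −0.13 for MAF1, 0.65 to 0.96 for MAF4 and 1.96 to 2.35 for MAF5. The 2 higher members became 1 against the 1.5-fold null, and ranged from 1 to 2 with a library left out. The 1 lower member became 2 with library totals or no organelle genes and 0 with the default DESeq2 run or the 1.5-fold null, and ranged from 1 to 2 with a library left out. Over all genes 3587 were higher and 3224 lower, and with a library left out 2290 to 3806 higher and 1757 to 3511 lower, the lowest counts without wild-type replicate 1. Same-numbered libraries did not deviate together (correlations 0.0136, 0.148 and −0.0561), so the numbers were not taken as pairs. With a replicate block 3106 genes were higher and 2767 lower, MAF5 had a log2 fold change of 2.20, and no member changed its call. Of the other named genes refitted under the alternatives, which leave out FRI and the markers, FLK, CLF, AT5G65120 and IKU1 lost a call with the block and AT3G13980 gained one. In the differences between neighbouring genes, 3 pairs allow no p under 0.25. Levels per kb moved beyond the replicate SD with coding length for all 6 genes. Depth limits MAF5 (97 reads in all), MAF4 (160) and FLC (165) most in wild type, and FLC (102) in the mutant.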
